A study of Mus musculus with 6 samples.

Results

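The proteasome genes were taken as the protein-coding mouse genes whose symbols begin with Psma, Psmb, Psmc, Psmd, Psme, Psmf or Psmg followed by a number. The GRCm38 annotation held 50 such genes, and 48 of them were among the 20756 genes of the deposited table; Psma8 and Psmb11 were not analysed here. The symbol rule also took in Psmc3ip, which encodes a recombination cofactor and no proteasome subunit, and Psme2b, a close copy of Psme2. Both are described apart from the subunits but stay in the counts over all members. The samples came from mouse material that the labels call MTO (strain C57BL/6), kept untreated in culture medium that lacked serum and held EGF. Cells with the genotype sgPrkci/Prkcz, which received guides against Prkci and Prkcz (genes of atypical protein kinase C), gave 3 samples, and cells with the control guide sgC gave 3. The labels do not say whether the edited line is a clone, nor whether replicates were separate cultures, so every p-value reflects only how far these samples scatter, and that scatter may be technical. The design text mentions tumors and 4 replicates, whereas 3 samples per genotype are listed here and their table is named as the in vitro one.

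The proteasome is the protease that degrades proteins tagged with ubiquitin. Its 20S core is a barrel in which outer rings of alpha subunits gate the entry and inner rings of beta subunits carry the proteolytic sites. A 19S regulatory particle caps the barrel: its base holds a ring of ATPases that unfold substrates, and its lid removes the ubiquitin chain. In the immunoproteasome, induced by interferon, the catalytic subunits Psmb5, Psmb6 and Psmb7 are replaced by Psmb8, Psmb9 and Psmb10, which changes the peptides offered to T cells. Dedicated chaperones, the Psmg proteins for the core and Psmd5, Psmd9 and Psmd10 for the base, guide assembly.

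Values are CPM (reads scaled to a library total of 1000000), from a 3′ tag protocol that yields tags near the 3′ end of each transcript and is not scaled by gene length, so levels are compared between samples and not between genes. The sgPrkci/Prkcz libraries held 1543826 to 1808292 reads and the sgC libraries 2821908 to 3048170, so depth differed with genotype. Epithelial markers were abundant, all 10 of 10 with reads and a summed level of 4575 to 5001 CPM in sgPrkci/Prkcz and 3796 to 4338 CPM in sgC. Of the guide targets, Prkcz averaged 2.09 ± 1.71 CPM in sgPrkci/Prkcz and 5.64 ± 0.706 CPM in sgC and fell (log2 fold change -1.24; limma, adjusted p = 0.00967), while Prkci averaged 54.4 ± 0.686 and 54.9 ± 8.60 CPM (0.00, adjusted p = 0.986); where the guides cut is not stated, so 3′ tags do not check the loss of either protein. Throughout, means carry the SD over 3 samples of each genotype, a log2 fold change is sgPrkci/Prkcz minus sgC on log2(CPM + 1), an adjusted p is from limma with Benjamini-Hochberg adjustment over 12207 tested genes, and a gene was called at an adjusted p under 0.05. Across all tested genes the median was -0.17, so a member at that value moved with the bulk of genes.

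Many proteasome genes were lower in the sgPrkci/Prkcz samples, but the calls were uneven between parts of the particle. Of the 19S particle, 10 of 17 tested genes fell and 2 rose, and 3 of 4 core chaperone genes fell. Of the 20S core, 3 of 15 tested genes fell, a smaller share than the 23.8% among all tested genes. Summed levels did not show this contrast, with sgPrkci/Prkcz over sgC at 0.846 for the 19S particle and 0.852 for the 20S core. Within samples, the 19S sum over the 20S sum was 1.227, 1.232 and 1.270 in sgPrkci/Prkcz. In sgC it was 1.247, 1.284 and 1.224, so the genotypes overlapped. Of 45 members that could be tested, 20 fell (44.4%), beside 23.8% of all tested genes, and 2 rose (4.44%), beside 11.4% of all. Without the genes matched by name alone, 19 of 44 fell (43.2%), and 30 were lower without overlap (68.2%). The median log2 fold change of the tested members was -0.30. Among tested genes with a mean between 40.8 and 195.9 CPM (the quartiles of the members), 28.9% fell, 17.9% rose and the median was -0.08. Members below and above these quartiles lie outside that band, so it matches the level of only a part of them. Samples of the genotypes did not overlap for 31 members that were lower in sgPrkci/Prkcz (68.9%, beside 30.0% of all tested genes) and for 2 that were higher (beside 15.0% of all). The counts depended on scaling and on the test. With the median of all genes set to 0, 16 members fell and 3 rose, beside 14.4% and 17.4% of all genes, and with TMM-scaled CPM also 16 and 3, beside 17.6% and 15.5%. edgeR on recovered reads called 16 fallen and 3 risen, beside 18.2% and 19.9% of all genes, and DESeq2 called 11 and 3, beside 8.89% and 12.3%. With chromosome medians removed 10 fell and 3 rose, beside 13.1% and 16.2% of all genes, and with the median of neighbouring genes removed 13 and 3, beside 13.3% and 16.3%. limma without a trend in the variance called 13 fallen and 1 risen, beside 16.2% and 7.45%.

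**Figure D1:**
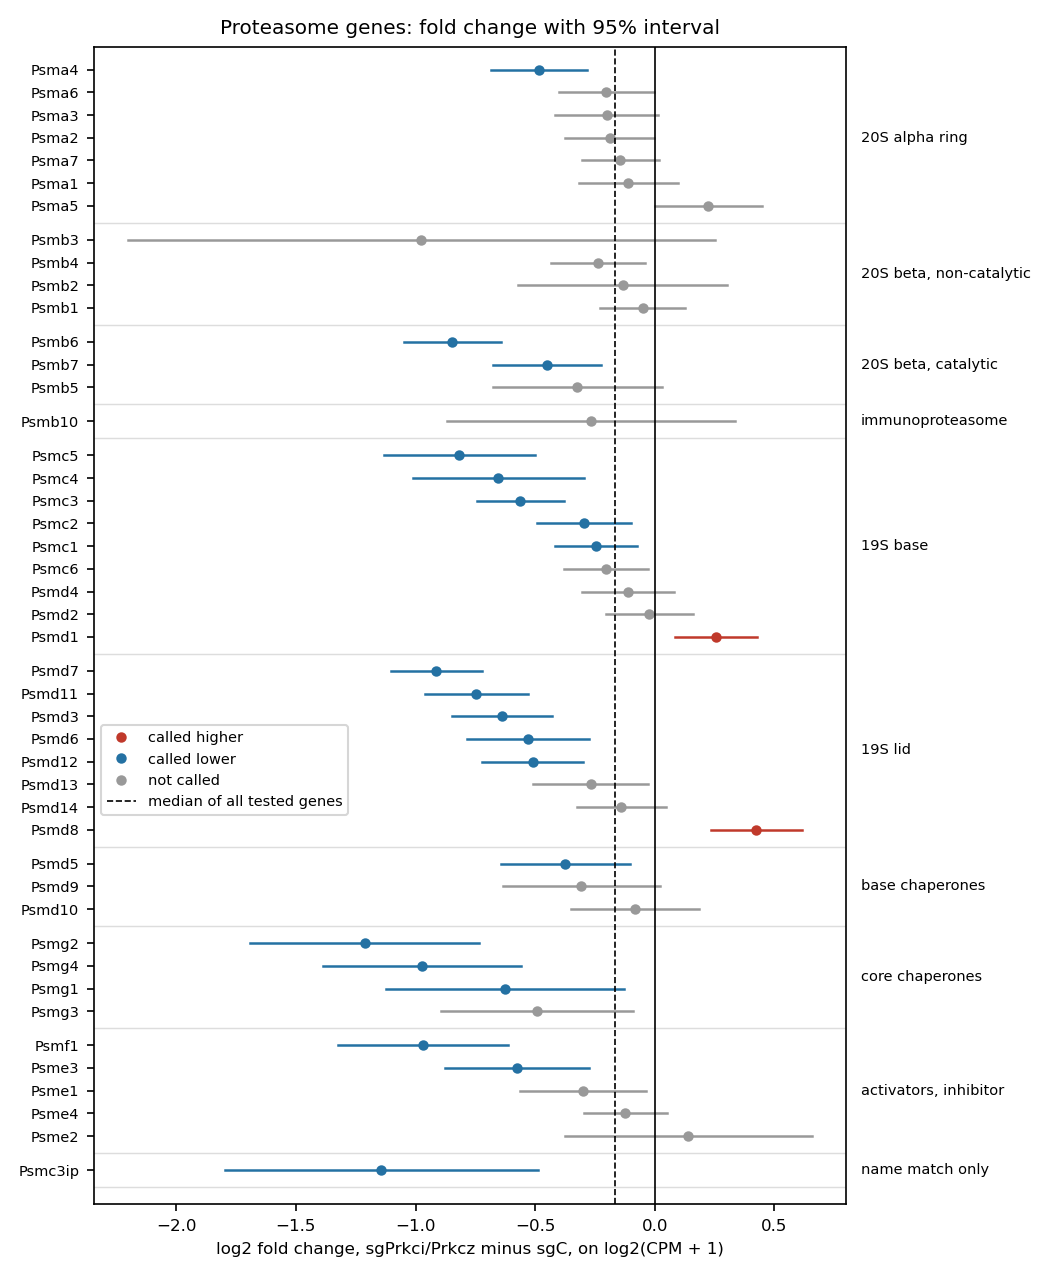
Log2 fold change (sgPrkci/Prkcz minus sgC, on log2(CPM + 1)) of the 45 tested proteasome genes, grouped by role, with 95% intervals from limma; the dashed line marks the median of all tested genes at -0.17. Blue points are the 20 members called lower and red points are Psmd1 and Psmd8, called higher; several grey members near the dashed line change sign when that median is set to 0.

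The 26S particle as a whole, its 34 core, base and lid genes with Psm names summed, stood at 4891, 5003 and 5176 CPM in the sgPrkci/Prkcz samples, against 5760.1, 6132 and 5861 CPM in the sgC samples. The highest sgPrkci/Prkcz sample lay below the lowest sgC sample. The mean was 5023 ± 144 CPM in sgPrkci/Prkcz and 5918 ± 192 CPM in sgC, a ratio of 0.849, which was 0.921 with TMM-scaled CPM. In bulk samples, fewer cells of a type and less RNA per cell cannot be told apart.

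In the alpha ring of the core, 1 of 7 tested genes fell and 0 rose (0 at an unadjusted p under 0.05 in the rising direction, and 1, Psma5, by edgeR and by DESeq2). Among all tested genes 23.8% fell and 11.4% rose. The ring's summed level was 1309, 1332 and 1341 CPM in sgPrkci/Prkcz, against 1408, 1531 and 1529 CPM in sgC. Psma4 (chromosome 9, 54950790 to 54958030, GRCm38) was the gene that fell, at 129, 142 and 148 CPM in sgPrkci/Prkcz against 199, 212 and 175 CPM in sgC. All 3 of its sgPrkci/Prkcz values lay below the sgC values, and its log2 fold change was -0.48 (SE 0.10; limma, adjusted p = 0.000304). Psma1, Psma2, Psma3, Psma6 and Psma7 had log2 fold changes of -0.20 to -0.11 and were not called. Psma5 had a positive value, 0.22 (limma, adjusted p = 0.115), and its samples overlapped, at 132, 116 and 154 CPM in sgPrkci/Prkcz and 106, 125 and 113 CPM in sgC. With the median of all genes set to 0 it was 0.39 and called, and Psma1 (0.06) and Psma7 (0.02) then also had positive values, not called.

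The non-catalytic beta genes Psmb1, Psmb2, Psmb3 and Psmb4 were not called. Psmb4, with the smallest p of them, stood at 162, 172 and 179 CPM in sgPrkci/Prkcz against 181, 227 and 201 CPM in sgC, without overlap (log2 fold change -0.24, 95% interval -0.43 to -0.04; limma, adjusted p = 0.0536). Psmb3 had the largest SE of the tested core genes on the log2 scale (0.47), with 47.7, 89.6 and 31.1 CPM in sgPrkci/Prkcz and 75.8, 96.5 and 143 CPM in sgC. Its log2 fold change of -0.98 had a 95% interval of -2.20 to 0.25, and among the 20 alternative fits it was called in 1, that without sgPrkci/Prkcz replicate 2.

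Of the 3 constitutive catalytic genes, Psmb6 and Psmb7 fell and Psmb5 was not called. Psmb6 (chromosome 11, 70525367 to 70527858), the caspase-like subunit, stood at 100.0, 107 and 116 CPM in sgPrkci/Prkcz, against 209, 198 and 177 CPM in sgC. The genotypes were far apart relative to their spread, with a log2 fold change of -0.85 (SE 0.10; limma, adjusted p = 1.02e-07). Psmb7, the trypsin-like subunit, stood at 90.9, 78.5 and 95.9 CPM in sgPrkci/Prkcz, against 126, 128 and 109 CPM in sgC (-0.45, SE 0.11; limma, adjusted p = 0.00198). It also did not overlap, although DESeq2, limma without trend and removal of chromosome medians each lost the call (adjusted p up to 0.109). Psmb5, the chymotrypsin-like subunit and main target of proteasome inhibitors, stood at 22.7, 22.1 and 29.1 CPM in sgPrkci/Prkcz and 28.2, 28.9 and 36.1 CPM in sgC. Its samples overlapped and it was not called (-0.32, 95% interval -0.68 to 0.03; limma, adjusted p = 0.151). Summed, the 3 genes averaged 221 ± 17.7 CPM in sgPrkci/Prkcz and 347 ± 21.7 CPM in sgC, a ratio of 0.637, whereas the 4 non-catalytic beta genes averaged 685 ± 15.4 and 785 ± 6.53 CPM (0.872).

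The promoter of Psmb6 is shown because Psmb6 fell most clearly among the core genes and because its window holds the core of an antioxidant response element, the motif through which the transcription factor Nfe2l1 is known to drive proteasome genes. The window runs from 250 bases before to 50 bases after the RefSeq gene start (GRCm38.p6, chr11:70525107-70525406, plus strand), with the motif TGACNNNGC in capitals.
Psmb6: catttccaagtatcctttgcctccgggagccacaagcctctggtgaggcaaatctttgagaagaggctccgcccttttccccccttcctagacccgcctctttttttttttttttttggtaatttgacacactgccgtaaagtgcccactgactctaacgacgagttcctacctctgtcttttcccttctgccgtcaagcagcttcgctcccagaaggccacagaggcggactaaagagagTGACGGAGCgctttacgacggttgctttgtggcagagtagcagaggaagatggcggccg
Of the 48 members, 41 had a RefSeq promoter entry, and TGACNNNGC, searched on both strands, occurred in 6 of these (14.6%), beside 14.0% of 27025 genes with an entry. The 6 sites are set side by side with up to 10 flanking bases, the motif in capitals and each read on the strand that carries it.
Psmb5: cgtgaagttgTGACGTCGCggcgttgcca
Psmb6: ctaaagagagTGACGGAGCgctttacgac
Psmc6: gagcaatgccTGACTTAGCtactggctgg
Psmd9: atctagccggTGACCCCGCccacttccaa
Psmd12: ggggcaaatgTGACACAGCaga
Psme4: gctcttctggTGACGCTGCagccgcagcg
The tested members with the motif had a median log2 fold change of -0.31 (2 of 6 fell, Psmb6 and Psmd12), and the 32 tested members with an entry and no motif had a median of -0.27 (13 fell, 2 rose). The 7 members without an entry are in neither set: Psmb1, Psmb2, Psmb7, Psmc3, Psmd3, Psmd7 and Psmg2. All of these but Psmb1 and Psmb2 fell, so the split leaves out some of the clearest falls. The motif CCAAT, on both strands, occurred in 14 of the 41 members (34.1%), beside 41.1% of all genes. A match describes letters in this window and is no evidence of binding.

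**Figure D2:**
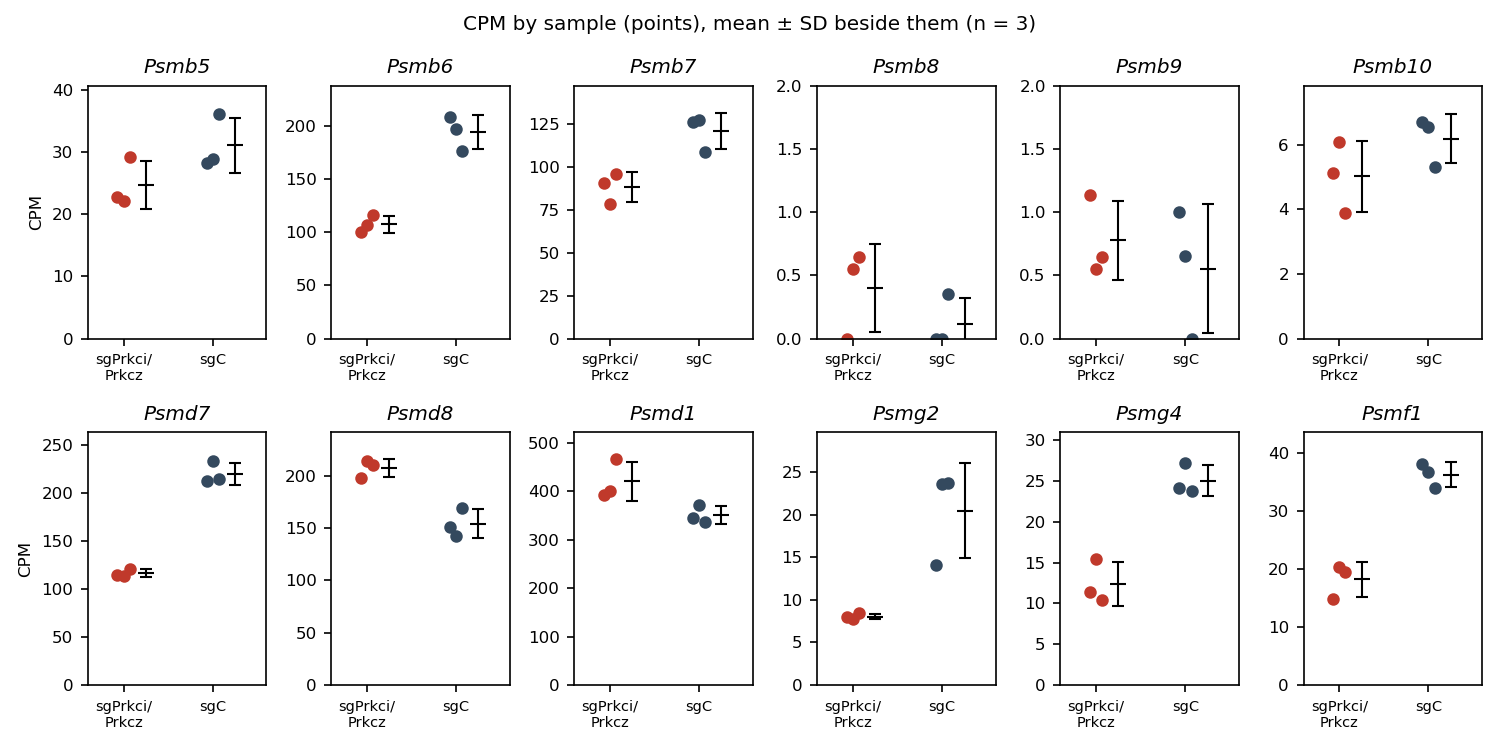
CPM of 12 proteasome genes in each sample (points) with the mean ± SD (bars, n = 3 per genotype), sgPrkci/Prkcz in red and sgC in dark blue. Psmb6, Psmb7, Psmd7, Psmg2, Psmg4 and Psmf1 are lower in every sgPrkci/Prkcz sample, Psmd8 and Psmd1 higher, and Psmb8 and Psmb9 lie near 0 in both genotypes.

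Of the immunoproteasome genes, Psmb8 and Psmb9 were at or near the detection limit in both genotypes. Psmb8 (chromosome 17, 34197721 to 34201454) had 2 reads in all in sgPrkci/Prkcz and 1 in sgC, both at or under a floor of 3 reads over the group, which corresponds to 0.587 CPM in sgPrkci/Prkcz and 0.339 CPM in sgC. Psmb9 (chromosome 17, 34181987 to 34187764) had 4 reads in sgPrkci/Prkcz and 5 in sgC. Neither passed the filter of at least 1 CPM in 3 samples. Psmb10 was low but testable, at 5.11, 6.08 and 3.89 CPM in sgPrkci/Prkcz and 6.70, 6.56 and 5.32 CPM in sgC. Its samples overlapped and it was not called (log2 fold change -0.27, 95% interval -0.87 to 0.34; limma, adjusted p = 0.521).

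As a share of the reads of all 6 catalytic genes, Psmb8 to Psmb10 made up 2.84%, 3.34% and 2.11% in the sgPrkci/Prkcz samples, against 2.08%, 2.0% and 1.73% in the sgC samples. This share does not depend on how libraries are scaled. The sgPrkci/Prkcz values all lay above the sgC values, but by little: over pooled reads the share was 2.77% (32 of 1156 reads, 95% exact interval 1.90 to 3.89%) in sgPrkci/Prkcz and 1.95% (61 of 3134 reads, 1.49 to 2.49%) in sgC, and these intervals, which cover counting error only, overlap. The summed level of Psmb8 to Psmb10 was 6.21 ± 1.00 CPM in sgPrkci/Prkcz and 6.87 ± 1.06 CPM in sgC, with overlapping samples. That of Psmb5 to Psmb7 was 221 ± 17.7 CPM in sgPrkci/Prkcz and 347 ± 21.7 CPM in sgC. The higher share thus came with lower Psmb5 to Psmb7 and not with a higher level of Psmb8 to Psmb10. Pair by pair, the share was 1.57% for Psmb8 against Psmb5 (2 of 127 reads) in sgPrkci/Prkcz and 0.364% (1 of 275) in sgC, 0.723% for Psmb9 against Psmb6 (4 of 553) and 0.289% (5 of 1730), and 5.46% for Psmb10 against Psmb7 (26 of 476) and 4.87% (55 of 1129).

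The promoter window of Psmb8 (GRCm38.p6, chr17:34197945-34198244, plus strand) is given because interferon acts on the immunoproteasome genes through such elements. Capitals mark a match to TTCNNNGAA, the core of a gamma-activated site, which reads the same on both strands and occurred in 7.32% of the 41 members and 9.55% of all genes with an entry.
Psmb8: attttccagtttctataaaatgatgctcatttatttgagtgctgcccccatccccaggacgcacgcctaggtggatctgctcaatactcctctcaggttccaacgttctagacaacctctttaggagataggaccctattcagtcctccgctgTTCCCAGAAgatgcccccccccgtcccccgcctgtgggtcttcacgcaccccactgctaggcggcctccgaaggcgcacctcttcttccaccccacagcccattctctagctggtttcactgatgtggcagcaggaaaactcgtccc
Genes of peptide loading and of the interferon response moved unevenly around it. Of 21 tested genes of that list 4 rose and 2 fell, beside 11.4% and 23.8% of all tested genes, with a median log2 fold change of 0.23. The interferon gamma receptor gene Ifngr2 rose to 52.5 ± 7.72 CPM in sgPrkci/Prkcz, against 26.6 ± 2.78 CPM in sgC (0.95; limma, adjusted p = 1.54e-05). The MHC class I gene H2-D1 rose to 275 ± 14.3 CPM, against 210.2 ± 21.0 CPM in sgC (0.39, adjusted p = 0.00122), and the interferon-induced ubiquitin-like gene Isg15 fell to 0.963 ± 0.274 CPM, against 5.17 ± 1.12 CPM in sgC (-1.64, adjusted p = 0.000568; 5 reads in all against 46). Tap1, which lies next to Psmb9, had 15 reads in sgPrkci/Prkcz and 10 in sgC, with overlapping samples. Leukocytes are a common source of immunoproteasome mRNA: 8 of 18 leukocyte markers had reads, their summed level was 54.2 to 66.5 CPM in sgPrkci/Prkcz and 13.5 to 18.8 CPM in sgC, and most of it in sgPrkci/Prkcz was Mrc1 (44.3 ± 2.98 CPM, against 1.12 ± 0.476 in sgC). The defining markers Cd3e, Csf1r, Adgre1 and Itgam were at 0 or not analysed here, and Ptprc averaged 0.97 CPM in sgPrkci/Prkcz and 0.24 CPM in sgC. The antigen presentation genes of the list ran the other way on few reads, with 0 reads in sgPrkci/Prkcz and 8 in sgC for Cd74, 0 and 7 for H2-Aa, and 1 and 6 for H2-Ab1. The part of such cells in the share was not tested.

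In the base of the regulatory particle 5 of the 6 ATPase genes fell and the large scaffold gene Psmd1 rose. The other 3 of the 9 base genes were not called, and the summed level was 1848 ± 104 CPM in sgPrkci/Prkcz and 2079 ± 78.6 CPM in sgC (ratio 0.889). Over the 9 base genes 55.6% fell and 11.1% rose, beside 23.8% and 11.4% of all tested genes. Psmc5 stood at 38.6, 26 and 39.5 CPM in sgPrkci/Prkcz, against 58.0, 68.6 and 56.7 CPM in sgC, with no overlap (log2 fold change -0.82, SE 0.15; limma, adjusted p = 0.000129). Psmc3 (chromosome 2, 91054009 to 91066369) had the smallest p of the base, at 229.5, 215 and 218 CPM in sgPrkci/Prkcz against 321, 364 and 297 CPM in sgC (-0.56, SE 0.09; limma, adjusted p = 1.2e-05). Psmc4 was at 25.6, 39.3 and 48.6 CPM against 55.7, 65.9 and 53.5 CPM in sgC. Its samples did not overlap, and the call (-0.65, SE 0.17; limma, adjusted p = 0.00461) was lost without sgPrkci/Prkcz replicate 1, in limma without trend and in DESeq2 (adjusted p up to 0.0974). Psmc1 (-0.25) and Psmc2 (-0.29) were called narrowly (limma, adjusted p = 0.0221 and 0.0176), and Psmc1 kept the call in 8 of 20 alternatives and Psmc2 in 9 of 20; both lost it in edgeR, in DESeq2, in limma without trend, with TMM and with chromosome or local medians removed. The sixth ATPase gene, Psmc6 (-0.20), was not called.

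Psmd1 encodes a base scaffold on which lid and ubiquitin-handling factors assemble. It stood at 393, 401 and 468 CPM in sgPrkci/Prkcz, against 345, 372 and 336 CPM in sgC. All sgPrkci/Prkcz values lay above the sgC values (log2 fold change 0.26, SE 0.08; limma, adjusted p = 0.0172). Genes of its chromosome had a median of 0.09 and its 40 nearest tested genes one of 0.17, and with either median removed, without sgC replicate 3, without sgPrkci/Prkcz replicate 3 and in limma without trend it was not called (adjusted p up to 0.489). The other scaffold gene Psmd2 (-0.02) and the ubiquitin receptor gene Psmd4 (-0.11) were not called, with 95% intervals of -0.21 to 0.16 and -0.30 to 0.08.

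Among the 26S genes with Psm names, the largest called fall, that of Psmd7, and the largest called rise, that of Psmd8, were both in the lid. Of 8 such lid genes 5 fell and 1 rose (62.5% and 12.5%, beside 23.8% and 11.4% of all tested genes), with a median log2 fold change of -0.52. The summed level was 937 ± 10.3 CPM in sgPrkci/Prkcz and 1211 ± 69.1 CPM in sgC (ratio 0.774). Of the lid genes not on chromosome 11, 2 of 5 fell and 1 rose, beside falls in 21.9% of all tested genes not on it. Their median was -0.27 and the ratio of their summed levels 0.848. Psmd7 (chromosome 8, 107580381 to 107588464), the partner of the deubiquitinase Psmd14, stood at 114, 114 and 121 CPM in sgPrkci/Prkcz, against 213, 233 and 215 CPM in sgC. The groups lay far apart, with a log2 fold change of -0.91 (SE 0.09; limma, adjusted p = 7.1e-09). Psmd11, a scaffold subunit of the lid, stood at 85.2, 90.7 and 77.7 CPM in sgPrkci/Prkcz, against 132, 148 and 147 CPM in sgC (-0.75, SE 0.10; limma, adjusted p = 2.12e-06). Psmd3 (-0.64), Psmd6 (-0.53) and Psmd12 (-0.51), further structural lid subunits, fell as well, each without overlap of the genotypes. Psmd6 lost the call in limma without trend and in DESeq2 (adjusted p = 0.0589 and 0.0706), and Psmd12 was at -0.07 with chromosome medians and -0.04 with local medians removed, not called. Psmd14 itself, which cuts ubiquitin chains off the substrate, had overlapping samples, at 191, 189 and 183 CPM in sgPrkci/Prkcz and 188, 221 and 213 CPM in sgC (-0.14, 95% interval -0.33 to 0.05; limma, adjusted p = 0.25).

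Psmd8 (chromosome 7, 29174188 to 29180701), the lid subunit known from yeast to join last and lock the lid for binding to the base, rose. It stood at 198, 214 and 209.9 CPM in sgPrkci/Prkcz, against 151, 142 and 169 CPM in sgC, without overlap (log2 fold change 0.43, SE 0.09; limma, adjusted p = 0.000738), and the call held in all 20 alternative fits. Its promoter window (GRCm38.p6, chr7:29180624-29180923, minus strand, given 5′ to 3′ on that strand) is shown for contrast with that of Psmb6, since Psmd8 moved the other way. It holds no match to TGACNNNGC, CCAAT or TTCNNNGAA and so no capitals. Lack of TGACNNNGC was usual and did not go with a rise. Of the 32 tested members with an entry and without it, 13 fell and 2 rose.
Psmd8: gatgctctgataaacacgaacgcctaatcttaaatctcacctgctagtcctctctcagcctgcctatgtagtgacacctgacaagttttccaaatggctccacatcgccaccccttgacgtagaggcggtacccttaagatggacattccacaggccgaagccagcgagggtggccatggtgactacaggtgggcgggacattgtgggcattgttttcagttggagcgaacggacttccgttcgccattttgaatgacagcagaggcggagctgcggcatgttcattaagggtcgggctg
Sem1, the small lid subunit outside the Psm naming scheme, also rose, to 199, 231 and 196 CPM in sgPrkci/Prkcz, against 109, 139 and 162 CPM in sgC (0.62, SE 0.11; limma, adjusted p = 0.000137).

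Ratios of summed levels within a sample, which do not depend on library scaling, set the parts side by side. The lid over the alpha ring was 0.710, 0.712 and 0.695 in sgPrkci/Prkcz, against 0.811, 0.836 and 0.792 in sgC, so every sgPrkci/Prkcz sample lay below every sgC sample. The base over the alpha ring did not separate the genotypes, with a mean of 1.39 ± 0.0631 in sgPrkci/Prkcz and 1.40 ± 0.0725 in sgC. The beta rings over the alpha ring were 0.687 ± 0.0115 in sgPrkci/Prkcz and 0.766 ± 0.0499 in sgC, without overlap. Psmb3 and Psmb6 lie on chromosome 11, whose genes were lower as a whole, and without them this ratio was 0.565, 0.535 and 0.590 in sgPrkci/Prkcz, against 0.619, 0.561 and 0.515 in sgC. The separation of the genotypes thus ended when these 2 genes were left out.

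The lid ratio also depended on which genes were counted. Of the 8 lid genes with Psm names 3 lie on chromosome 11, and without them the lid over the alpha ring was 0.492 ± 0.0058 in sgPrkci/Prkcz and 0.517 ± 0.0083 in sgC, still lower without overlap. With Sem1 counted in the lid and chromosome 11 kept, the ratio was 0.862, 0.886 and 0.841 in sgPrkci/Prkcz, against 0.889, 0.927 and 0.898 in sgC, so the genotypes nearly touched. With Sem1 counted and the chromosome 11 genes left out, the order turned, at 0.651, 0.663 and 0.634 in sgPrkci/Prkcz against 0.589, 0.617 and 0.618 in sgC. These choices were made after the values were seen. A lower lid level relative to the alpha ring therefore held for the genes with Psm names and not for every way of counting the lid.

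**Figure D3:**
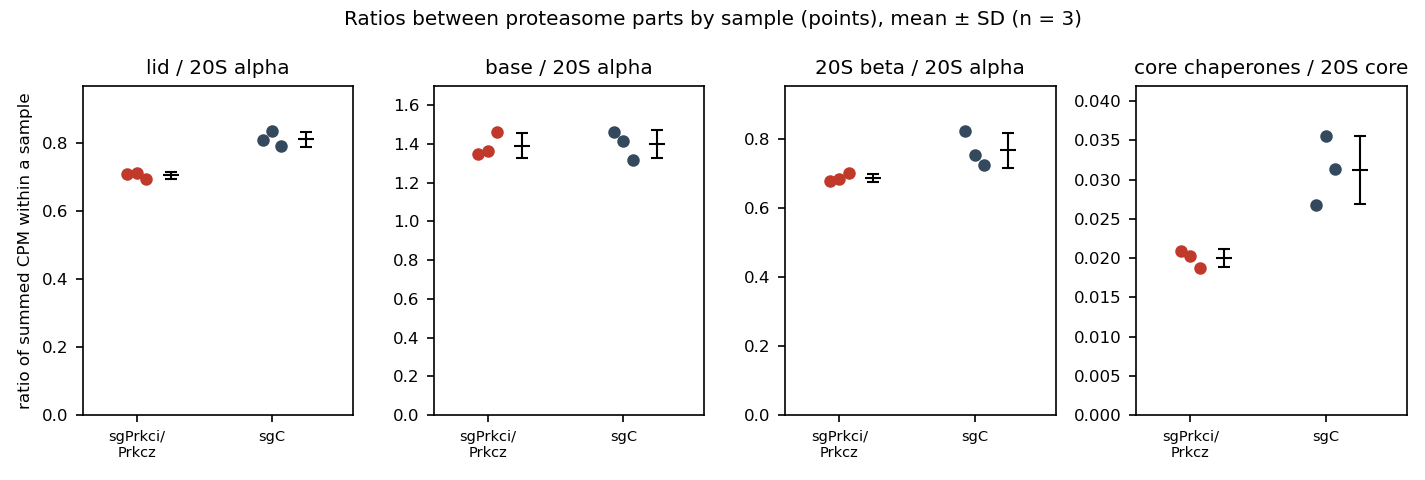
Ratios of summed CPM within each sample (points) with the mean ± SD (bars, n = 3 per genotype), sgPrkci/Prkcz left and sgC right in each panel. With genes named Psm counted on all chromosomes, the lid, beta-ring and core-chaperone ratios lie lower in all sgPrkci/Prkcz samples (the beta-ring separation ends without the chromosome 11 genes, and the lid order turns with Sem1 counted and those genes left out), and the base over the alpha ring overlaps at means of 1.39 and 1.40.

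The assembly chaperones of the core had the lowest median log2 fold change of the proteasome's parts, -0.80. Of 4 Psmg genes 3 fell, and the summed level was 44.7 ± 1.72 CPM in sgPrkci/Prkcz and 82.3 ± 13.4 CPM in sgC (ratio 0.543). Psmg2, which pairs with Psmg1 to start the alpha ring, stood at 7.95, 7.74 and 8.42 CPM in sgPrkci/Prkcz, against 14.1, 23.6 and 23.7 CPM in sgC. No values overlapped (log2 fold change -1.21, SE 0.23; limma, adjusted p = 0.000175). Psmg4 (chromosome 13, 34162964 to 34178173), which works as a pair with Psmg3, stood at 11.4, 15.5 and 10.4 CPM in sgPrkci/Prkcz, against 24.1, 27.2 and 23.7 CPM in sgC (-0.97, SE 0.20; limma, adjusted p = 0.000391). Psmg2 and Psmg4 were called in all 20 alternative fits. Psmg1 (-0.63; limma, adjusted p = 0.0459) lay just inside the threshold and was called in 3 of 20 alternatives, and Psmg3 (-0.49; limma, adjusted p = 0.0504) just outside it. These 4 genes rest on few tags, 7.74 to 27.2 CPM per library, and their intervals are accordingly wide. The maturation factor Pomp, which acts on the same assembly line and is no Psm gene, went the other way, at 502 ± 48.5 CPM in sgPrkci/Prkcz and 376 ± 49.7 CPM in sgC (0.42; limma, adjusted p = 0.000698). Of the 3 base chaperone genes 1 fell. Psmd5 lay just inside the threshold (-0.37; limma, adjusted p = 0.0284; called in 6 of 20 alternatives), and Psmd9 (-0.31) and Psmd10 (-0.08) were not called.

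Among the alternative caps of the core, the gene of the inhibitor Psmf1 (chromosome 2, 151715812 to 151744186) had the largest called fall. It stood at 14.8, 20.5 and 19.4 CPM in sgPrkci/Prkcz, against 38.2, 36.7 and 34.0 CPM in sgC, with no overlap (log2 fold change -0.97, SE 0.17; limma, adjusted p = 6.96e-05). Psme3, the nuclear activator, fell to 27.8, 32.6 and 37.6 CPM in sgPrkci/Prkcz, against 48.3, 51.5 and 46.8 CPM in sgC (-0.57, SE 0.15; limma, adjusted p = 0.00302). Psme1 and Psme2, the interferon-inducible activator pair whose genes neighbour each other on chromosome 14, were not called (-0.30 and 0.14; limma, adjusted p = 0.0725 and 0.706), and the samples of Psme2 overlapped. Psme4, a large activator, was at 239, 241 and 222 CPM in sgPrkci/Prkcz and 249, 252 and 263 CPM in sgC, and was not called (-0.12; limma, adjusted p = 0.282). Of the genes matched by name alone, Psmc3ip fell to 2.84, 2.21 and 1.94 CPM in sgPrkci/Prkcz, against 6.03, 5.58 and 7.44 CPM in sgC (-1.14; limma, adjusted p = 0.00604), and Psme2b had too few reads to test.

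Position on the genome moved with these results. Chromosome 11 carried 9 of the 45 tested members, and its 966 tested genes had a median log2 fold change of -0.44. With no correction 7 of these 9 members fell, beside 45.8% of the tested genes of that chromosome; they were Psmb6, Psmc5, Psmd3, Psmd11, Psmd12, Psme3 and Psmc3ip. Of the 36 members on other chromosomes 13 fell (36.1%), beside 21.9% of the tested genes there. With the chromosome median removed Psmb6 was at -0.40 and Psmd11 at -0.30, and both stayed called, while Psmc5 (-0.37), Psmd3 (-0.19), Psmd12 (-0.07), Psme3 (-0.13) and Psmc3ip (-0.70) did not. With the median of the 40 nearest tested genes removed in its place, Psmb6 (-0.43) and Psmd3 (-0.32; limma, adjusted p = 0.0192) stayed called and Psmd11 did not (-0.20; limma, adjusted p = 0.155), nor did Psmc5, Psmd12, Psme3 and Psmc3ip. Of the 7, Psmb6 was thus the one called under both corrections. Psmd7 on chromosome 8, whose genes had a median of -0.40, was at -0.52 and stayed called. What part the chromosome-wide shift has in the falls was not tested. Chromosome 15 had a median of -0.39, and the 5 tested genes of chromosome Y had one of 4.01, with 1 of them negative. Whether the sgPrkci/Prkcz and sgC cells differ in ways other than the guides was not tested.

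**Figure D4:**
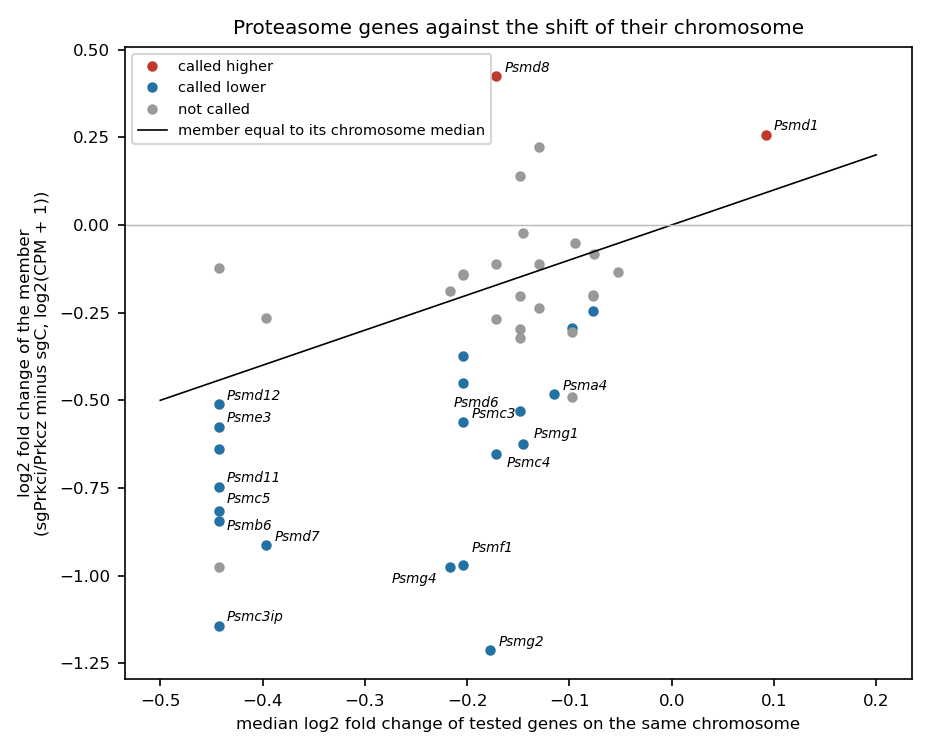
Log2 fold change of each tested proteasome gene (vertical) against the median of all tested genes on its chromosome (horizontal); the line marks equality. Members on chromosome 11 stand at the left at -0.44, and Psmg2, Psmg4 and Psmf1 lie far below the line on chromosomes whose median is near that of all genes.

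Genes that work with the proteasome moved in both directions. Of 17 tested partner genes without a Psm name 4 rose and 2 fell (median log2 fold change -0.03). Besides Sem1 and Pomp, the shuttle factor gene Ubqln2 rose to 46.8 ± 7.52 CPM in sgPrkci/Prkcz, against 29.3 ± 0.693 CPM in sgC (0.65; limma, adjusted p = 0.00133), and Zfand5, which binds the 26S particle, rose by 0.47 (adjusted p = 0.000558). Among 11 genes of the pathway through which Nfe2l1 raises proteasome transcription, Nfe2l1 itself was not called, at 86.9, 128 and 97.2 CPM in sgPrkci/Prkcz and 108, 133 and 122 CPM in sgC (-0.23, adjusted p = 0.155), nor was Ddi2, the protease that activates it (-0.16, adjusted p = 0.351). Its relatives moved in opposite directions. Nfe2l2, which drives antioxidant genes, fell to 189, 201 and 209 CPM in sgPrkci/Prkcz, against 334, 378 and 382 CPM in sgC (-0.87; limma, adjusted p = 5.13e-09). Nfe2l3 rose to 16.5, 15.5 and 18.8 CPM in sgPrkci/Prkcz, against 4.02, 1.97 and 4.61 CPM in sgC (2.03; limma, adjusted p = 1.54e-06).

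The polyubiquitin gene Ubb fell to 277 ± 19.5 CPM in sgPrkci/Prkcz, against 399.9 ± 18.9 CPM in sgC (-0.53; limma, adjusted p = 1.16e-05). Ubb lies on chromosome 11, whose median was -0.44. Of 12 tested genes in the ubiquitin list 2 rose and 3 fell, with the conjugating enzyme gene Ube2r2 among the rises (0.81; limma, adjusted p = 5.65e-08). The VCP segregase, which extracts ubiquitinated proteins for the proteasome, and its cofactors gave 3 rises and 4 falls of 13, with Yod1, a deubiquitinase, at 0.86 (adjusted p = 0.000338) and the cofactor Nploc4, also on chromosome 11, at -0.66 (adjusted p = 0.00155).

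Other large assemblies gave different pictures. The COP9 signalosome, whose subunits are related to those of the lid, had 1 rise and 2 falls among 10 tested genes and a median log2 fold change of 0.12, with Cops3 at -0.61 (limma, adjusted p = 0.00164) and Cops9 at 0.42 (adjusted p = 0.00922). Cops3 also lies on chromosome 11, whose median was -0.44. All 8 genes of the CCT chaperonin, the ring that folds actin and tubulin, fell (median -0.50, range -0.83 to -0.35). Cct5 stood at 195, 185 and 203 CPM in sgPrkci/Prkcz, against 341, 364 and 335 CPM in sgC (-0.83; limma, adjusted p = 6.98e-09). For these and the earlier related lists, the shares among all tested genes were 11.4% risen and 23.8% fallen. The lists are given by their counts and medians, and no test of one list against another was made.

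**Figure D5:**
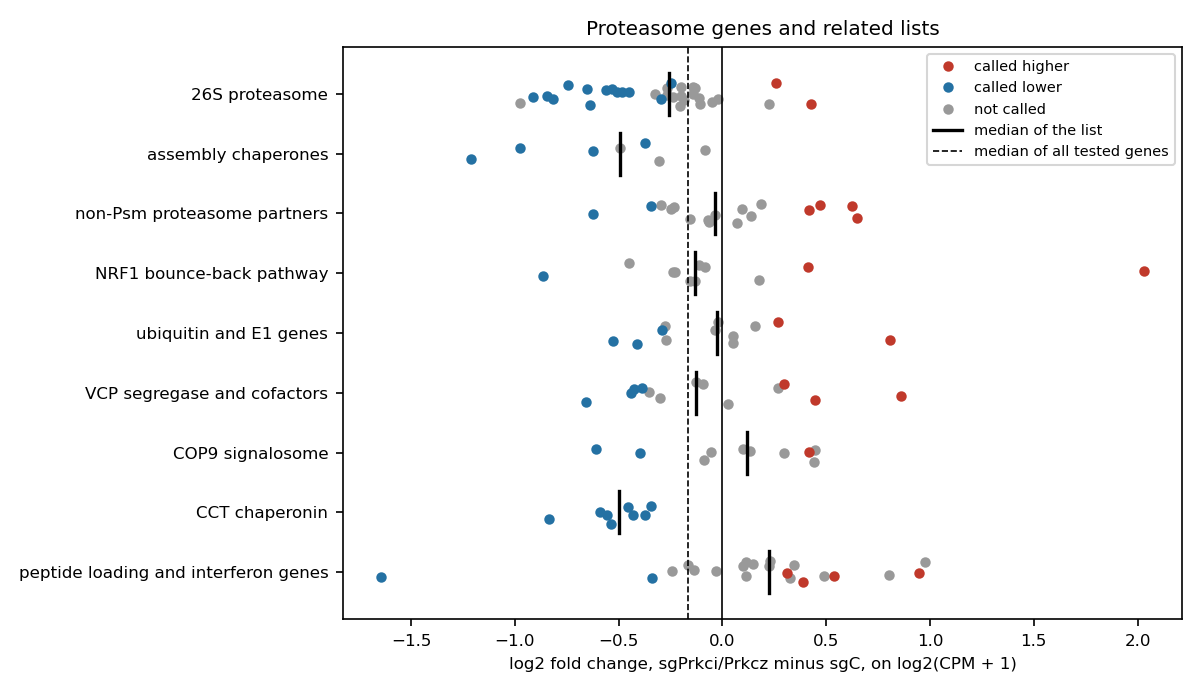
Log2 fold change (sgPrkci/Prkcz minus sgC, on log2(CPM + 1)) of each tested gene of the 26S proteasome, its assembly chaperones and 7 related lists, with the median of each list as a black bar and that of all tested genes as a dashed line at -0.17. All CCT chaperonin genes lie left of the dashed line (median -0.50), the partners without a Psm name centre at -0.03, and Nfe2l3 is the point at 2.03.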

How the data were processed

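The authors deposited 1 table of CPM values per gene and library, every column summing to 1000000, for 20756 genes named by Ensembl identifier. GRCm38 is the build named, per the submitters' processing notes; no source used here gives the aligner, the counting tool, its strandedness or any use of molecular identifiers. Without a stated strand setting, reads of Psma3, Psmb7, Psmc3, Psme1 and Psmc3ip cannot be told apart from those of genes annotated across their 3′ ends on the opposite strand. Columns were matched to samples by title, and symbols came from GENCODE M21 (20675 identifiers). Dividing each column by its lowest nonzero value gave whole numbers (relative tolerance 1e-06; 100% of values), so whole reads were recovered.

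The test was limma 3.58.1 (trend, robust) in R 4.3.3 on log2(CPM + 1), for genes that reached 1 CPM in 3 or more samples, with genotype as the single factor. This scale understates the change of low genes. The recovered reads were also tested with edgeR 4.0.16 and DESeq2 1.42.0. Fits were checked on simulated data. Other alternatives were quantile normalization, TMM-scaled CPM, library totals that omit 3 rRNA-like genes, a median change of 0, chromosome medians removed, pseudocounts of 0.1 and 5, a mean of 5 CPM or more in place of the filter, no filter, no trend, thinned reads, and leaving out each sample. Local medians (40 nearest tested genes) removed and members on chromosome 11 left out were chosen after seeing the data.

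The members and lists were chosen with earlier results of these data known. Text values were given for Psmb5 to Psmb10 and for up to 5 of the largest rises and 5 of the largest falls called. They were also given for the member with the smallest p in each role and for up to 3 called genes per related list. Psma5, Psmb3, Psmd14, Psmc4, Psmc1, Psmc2, Nfe2l1, Ddi2 and Tap1 were named after their values were seen. The values by sample of Psmc5, Psmd11, Psme3 and Psme4, and the values of Ubqln2, also lie outside this rule. A few genes of the related lists are counted but not reported here by name. Intervals on reads and floors of 3 reads cover counting error only.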

Additional observations from a re-analysis of the deposited data

How the results depend on the processing

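Among single members, no call changed direction under an alternative that tested it, except that Psme4, not called at -0.12, was called higher with chromosome medians removed (0.32) and with local medians removed (0.32). Of the 22 called members, 8 kept their call in all 20 alternative fits: Psma4, Psmb6, Psmc3, Psmd7, Psmd8, Psmg2, Psmg4 and Psmf1. The count of fallen members was 20, and it was 10 with chromosome medians removed, 13 with local medians removed, 13 with limma without trend, 11 with DESeq2 and 13 with the members on chromosome 11 left out. The count of risen members was 2, and 1 with limma without trend. Leaving out each sample gave 16 to 24 fallen and 1 to 3 risen; the count of 1 came without sgC replicate 3 or sgPrkci/Prkcz replicate 3. The median log2 fold change of the members was -0.20 with quantile normalization, -0.13 with the median change set to 0, -0.18 with TMM-scaled CPM, -0.15 with chromosome medians removed, -0.19 with local medians removed, -0.16 with edgeR and -0.15 with DESeq2, and -0.37 to -0.26 over single samples left out. The scalings centre all genes nearer to 0, so they move this median by construction. The summed 26S level had a ratio of 0.921 with TMM-scaled CPM. The difference in immunoproteasome share was 0.83 percentage points, and 0.54 to 1.16 with single samples left out. Depth limits Psmb8 and Psmb9, at 1 to 5 reads per genotype. No paired analysis was possible because the labels give the genotypes no shared replicate numbers.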
